A study of Mus musculus with 13 samples.

Results

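The genes described here are 10 genes of late epidermal differentiation, namely Sprr1a, Sprr1b, Sprr2a2, Sprr2h, Ivl, Lor, Krtdap, Dmkn, Krt1 and Krt10, out of 23845 genes measured. They were chosen by their expected counts and TPM in knockout and wild-type (WT) lines and taken by symbol, so their values in that comparison are given as a description with no test. RNA was sequenced from 13 primary mammary tumour cell lines of mouse strain FVBN/J, 7 with a JNK knockout and 6 WT, in a study of HER2-driven breast cancer. JNK, the c-Jun N-terminal kinase, is a family of stress-activated kinases, and its mouse genes include Mapk8 and Mapk9. The labels give neither the JNK genes or exons removed nor the promoter of the HER2 transgene or of any Cre, and no age of the animals. Every line of both groups was grown as a tumour-derived culture, at first on collagen I with little serum and then on plain dishes with serum, EGF and insulin. No line was placed under conditions that the labels describe as inducing keratinocyte differentiation.

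Each sample is a separate line, named below by its group and replicate number. WT replicates 4 and 5 have titles that share a number, and the labels do not say whether they came from 1 animal. Where lines share an animal, the p-values below measure only the spread between these lines. Titles of knockout and WT lines begin with different letters, so colony or handling cannot be told apart from genotype. Total expected counts ran between 38298600 and 46689810 per line. Mapk8 had 4.33 to 8.33 CPM (reads scaled to a common library size) in knockout lines and 24.0 to 37.3 CPM in WT lines, and Mapk9 had 8.90 to 24.7 CPM in knockout lines and 55.0 to 73.1 CPM in WT lines. TPM is transcript abundance scaled for length and depth. Summed over 8 luminal mammary epithelial genes it was 1127 to 3571 in knockout lines and 5824 to 7469 in WT lines. Most of that sum was Krt8 and Krt18, which were present in every line of both groups. Knockout replicate 2 had the lowest Epcam (33.4 TPM) and Cdh1 (33.1 TPM) of all lines. The other knockout lines had 234 to 530 TPM of Epcam and 122 to 278 TPM of Cdh1. Krt19 and Esr1 were not lowest in knockout replicate 2.

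A keratinocyte that leaves the basal layer of the epidermis stops making Krt5 and Krt14, makes Krt1 and Krt10 in the spinous layer, and then builds a cornified envelope under its membrane from proteins that transglutaminases crosslink. Involucrin, the small proline-rich proteins, loricrin and the late cornified envelope proteins are the precursors of that envelope, and many of their genes lie side by side in the epidermal differentiation complex. Normal mammary epithelium does not cornify, but squamous differentiation is a known feature of some mammary tumours.

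Promoter sequence is shown for members that differ in their response, because JNK phosphorylates c-Jun, a subunit of the AP-1 factor, and the AP-1 word TGANTCA could be looked for in each. The 250 bases before an annotated RefSeq transcription start (GRCm38.p6) were read for 9 of the 10 members. They were read 5′ to 3′ on the strand of the gene, with TGANTCA on either strand in capitals. For Krt10, Ivl and Sprr1b that start lies inside the annotated span of the gene, and a start at the outer end of the span was not read. The windows printed are Sprr1a at chr3:92485882-92486131 on the minus strand, Ivl at chr3:92573736-92573985 on the minus strand, Lor at chr3:92083143-92083392 on the minus strand, Krtdap at chr7:30787655-30787904 on the plus strand and Krt10 at chr11:99389365-99389614 on the minus strand.
Sprr1a: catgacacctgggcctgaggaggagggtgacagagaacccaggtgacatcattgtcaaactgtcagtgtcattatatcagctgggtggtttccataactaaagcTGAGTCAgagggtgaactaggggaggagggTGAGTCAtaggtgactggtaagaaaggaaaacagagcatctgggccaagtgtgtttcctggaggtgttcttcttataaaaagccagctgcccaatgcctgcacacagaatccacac
Ivl: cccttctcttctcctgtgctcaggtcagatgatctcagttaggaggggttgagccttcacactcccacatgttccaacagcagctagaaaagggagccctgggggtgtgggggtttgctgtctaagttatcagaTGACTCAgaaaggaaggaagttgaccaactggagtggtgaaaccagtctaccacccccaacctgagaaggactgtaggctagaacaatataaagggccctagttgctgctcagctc
Krtdap: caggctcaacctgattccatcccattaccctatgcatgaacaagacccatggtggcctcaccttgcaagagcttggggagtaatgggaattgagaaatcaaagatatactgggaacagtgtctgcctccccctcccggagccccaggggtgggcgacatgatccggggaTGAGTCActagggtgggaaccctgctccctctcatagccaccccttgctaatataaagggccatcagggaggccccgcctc
Lor: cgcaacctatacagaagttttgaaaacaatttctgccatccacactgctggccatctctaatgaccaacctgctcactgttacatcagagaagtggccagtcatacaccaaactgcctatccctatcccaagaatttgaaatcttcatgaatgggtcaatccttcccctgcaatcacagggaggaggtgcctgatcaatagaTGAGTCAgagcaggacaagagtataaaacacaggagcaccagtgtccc
Krt10: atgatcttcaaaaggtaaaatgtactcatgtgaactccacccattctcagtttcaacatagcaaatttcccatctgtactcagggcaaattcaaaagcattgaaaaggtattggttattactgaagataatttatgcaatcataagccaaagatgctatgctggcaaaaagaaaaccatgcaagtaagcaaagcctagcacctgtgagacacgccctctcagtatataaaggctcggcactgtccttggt
Sprr1a, Ivl and Krtdap were higher in every knockout line than in every WT line, while the groups overlapped for Lor and Krt10. The word began at −146 and −116 from the start site in Sprr1a, at −116 in Ivl, at −81 in Krtdap and at −48 in Lor, and those letters are not in the Krt10 window.

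Across all members matched, TGANTCA was in 7 of 9, the others being Sprr1b at −111, Sprr2h at −198 and Dmkn at −89, and it was in 7.82% of 27025 genes with a window of that length. The stricter word TGAGTCA or its reverse complement TGACTCA, which TGANTCA includes, was in 6 of 9 members and in 5.16% of genes. A Grainyhead-type word, AACCNGTT, was in 0 of 9 members and 2.00% of genes. A C/EBP-type word, TTGCNNAA on either strand, was in the windows of Dmkn and Krt10, and in 10.8% of genes. Lor, for which the groups overlapped, holds the AP-1 word, and Sprr2a2, which was higher in every knockout line, does not hold it in this window. A match is a description of the letters and not of a bound site.

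**Figure D1:**
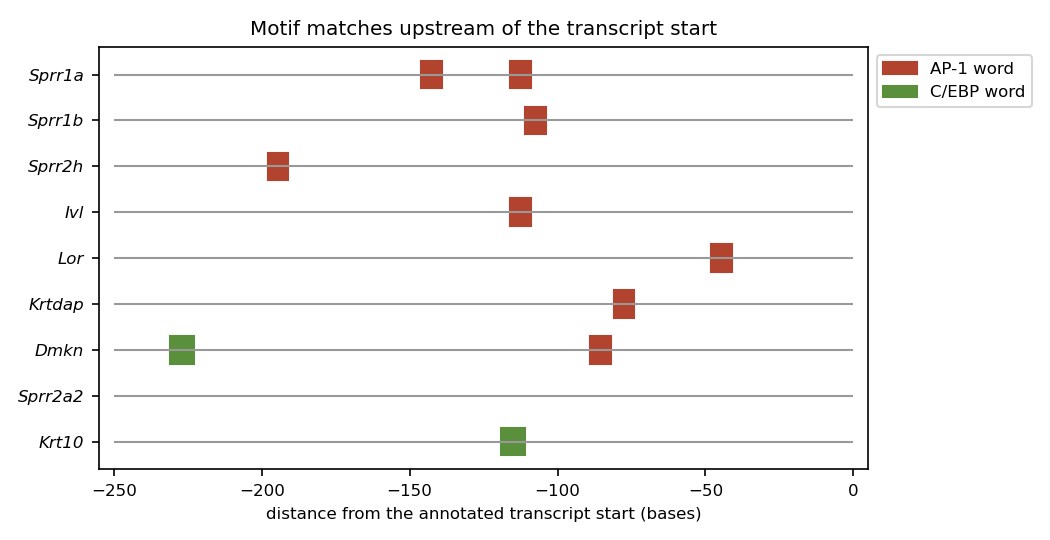
Matches of the AP-1 word TGANTCA (red) and the C/EBP word TTGCNNAA (green), on either strand, in the 250 bases before an annotated transcript start of 9 member genes, in bases from that start, 1 row per gene. The AP-1 word was found in 7 of the 9 genes, starting between −198 and −48, and not in Sprr2a2 or Krt10.

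The 2 keratins of the spinous layer stayed at low levels in both groups. Krt1, the type II keratin that marks commitment of keratinocytes to differentiation, had a lowest, median and highest value of 0.04, 0.17 and 1.58 TPM in knockout lines and of 0, 0.02 and 0.05 TPM in WT lines. Knockout replicates 3 to 7 were above every WT line in TPM, while knockout replicates 1 and 2 lay within the WT range. Krt1 had 205 reads over the 7 knockout lines and 7 reads over the 6 WT lines and did not pass the filter on low counts. Without that filter, its log2 fold change was 4.53 (SE 1.09), and 3.80 without knockout replicate 7.

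Krt10, the partner of Krt1 in the spinous filament, had 1.34, 1.97 and 2.68 TPM (lowest, median, highest) in knockout lines and 1.52, 1.93 and 2.11 TPM in WT lines. The groups overlapped throughout, the means were 1.98 ± 0.469 TPM in knockout lines and 1.86 ± 0.249 TPM in WT lines (SD, n = 7 and 6), and the log2 fold change was 0.33 (SE 0.27). Knockout replicate 7 had the highest Krt1 value and the lowest Krt10 value of the knockout lines.

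The other 2 spinous members were far higher in the knockout lines. Krtdap, a small secreted protein of differentiating keratinocytes, had 7.45, 25.7 and 66.0 TPM (lowest, median, highest) in knockout lines and was listed at 0 in every WT line. With 1281 reads over the knockout lines and 0 over the WT lines, it was at least 385-fold higher in knockout lines against a floor of 3 reads over the WT group, a bound that covers counting error only. Dmkn, dermokine, which is secreted by the upper epidermis and whose gene is next to Krtdap on chromosome 7, had 10.9, 45.5 and 132 TPM in knockout lines and 0, 0.075 and 0.54 TPM in WT lines. Every knockout line exceeded every WT line for both genes. The log2 fold change of Dmkn was 9.14 (SE 0.79), from means of 48.3 ± 41.5 TPM in knockout lines and 0.17 ± 0.208 TPM in WT lines.

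Among the envelope precursors, the 4 small proline-rich genes and involucrin were each higher in every knockout line than in any WT line. Sprr1a, whose product is crosslinked into the envelope and is also made after stress and wounding, had 14.1, 31.0 and 127 TPM (lowest, median, highest) in knockout lines and 0.08, 0.32 and 12.9 TPM in WT lines. WT replicate 3 stood apart from the other WT lines, of which the next highest had 1.92 TPM, and came close to the lowest knockout line. The log2 fold change of Sprr1a was 4.40 (SE 1.19), and 6.68 when WT replicate 3 was left out.

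Sprr1b, the close relative of Sprr1a, had 2.67, 8.07 and 16.8 TPM in knockout lines and 0 reads in every WT line. Its 1119 reads over the knockout lines put it at least 336-fold higher there against the floor of 3 reads over the WT group. Of the members, Sprr1b and Krtdap were the 2 with reads in every knockout line and in no WT line.

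Sprr2a2 and Sprr2h belong to the Sprr2 family of proline-rich precursors, whose members are near-identical, so that the sharing of reads between them is uncertain. Sprr2a2 had 0.38, 2.85 and 23.4 TPM in knockout lines and 0, 0.025 and 0.17 TPM in WT lines. Sprr2h had 1.34, 3.20 and 23.3 TPM in knockout lines and 0, 0 and 0.14 TPM in WT lines. Sprr2a2 had 6.48 times as many counts for 1 TPM as Sprr2h, so the order of the 2 depends on the scale. In knockout lines the median was 6.19 CPM for Sprr2a2 and 1.07 CPM for Sprr2h. The groups did not overlap for either gene, and knockout replicates 6 and 7 were the 2 highest lines for both. Log2 fold changes were 7.04 (SE 1.24) for Sprr2a2 and 7.36 (SE 1.10) for Sprr2h, and without knockout replicate 7 they were 5.99 and 6.62. Without WT replicate 5, the WT line with most of these reads, they were 7.94 and 8.24.

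Summed over the 10 Sprr2 genes measured, there were 5227 reads in knockout lines and 28 in WT lines, and 2315 in knockout lines without replicate 7 and 11 in WT lines without replicate 5. In the family, 8 of the 10 genes had reads in knockout lines only, a share not counted over all genes. The same sum over all 14 Sprr genes was 12068 reads in knockout lines and 241 in WT lines, and 6737 in knockout lines without replicate 7 and 68 in WT lines without replicate 3. Sprr2a1 and Sprr2a3 were not analysed here.

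Ivl, involucrin, is the scaffold on which the envelope is first assembled. It had 0.77, 3.17 and 9.31 TPM (lowest, median, highest) in knockout lines and 0.04, 0.25 and 0.46 TPM in WT lines. The lowest knockout line was above the highest WT line, and the log2 fold change was 4.23 (SE 0.77). Leaving out knockout replicates 2 and 7, a choice made after their values were seen, gave 3.18.

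Lor, loricrin, which makes up most of the mature envelope and is among the last precursors to appear, did not separate the groups. It had 0.05, 0.60 and 5.15 TPM in knockout lines and 0, 0.665 and 1.72 TPM in WT lines. Knockout replicates 4 and 7 were above every WT line, the other knockout lines lay within the WT range, and the WT median was above the knockout median. The log2 fold change was 0.83 (SE 0.98), and it was −0.13 without knockout replicate 7.

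**Figure D2:**
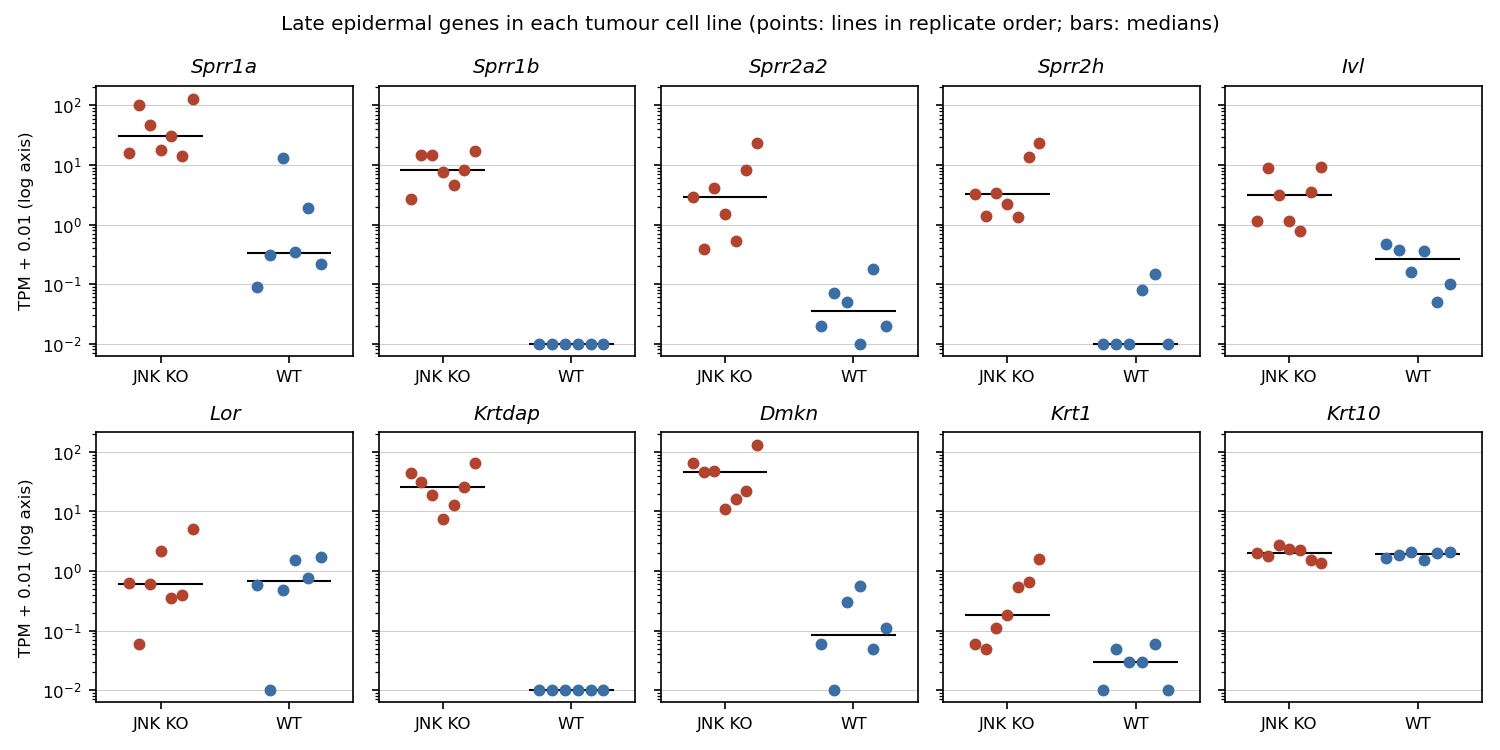
TPM of each member in each line on a log axis (0.01 added so that zeros can be drawn), 1 panel per gene, with 7 knockout lines (red) left of 6 WT lines (blue) and a bar at the group median. In 7 of the 10 panels every knockout line is above every WT line, for Krt1 5 of 7 are, and the groups overlap for Lor and Krt10.

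In total, 7 of the 10 members had every knockout line above every WT line, against 2.08% of the 13058 genes tested. Since this contrast was known when the members were proposed, nothing is read from that count, and no test result is given for them. Of all genes tested, 4.33% were higher in knockout lines by edgeR's quasi-likelihood test at an adjusted p under 0.05, and 4.17% were lower (8.51% in either direction). Of the members, 9 passed the filter on low counts and Krt1 did not. The median log2 fold change of the 10, with Krt1 taken from the fit without that filter, was 5.78, beside 0.01 over all genes tested. There, 566 genes were higher and 545 lower. On the log2(TPM + 1) scale, 286 of all genes were higher and 998 lower, about a median that had itself shifted to −0.19. Counts over all genes fell to 329 higher and 316 lower without knockout replicate 1 and to 324 higher and 326 lower without knockout replicate 7, and the higher calls were 375 without knockout replicate 3 and 374 without WT replicate 1.

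Within the knockout lines, the median levels in TPM ran in the order Dmkn, Sprr1a, Krtdap, Sprr1b, Sprr2h, Ivl, Sprr2a2, Krt10, Lor and Krt1. The place of Sprr2a2 in that order rests on the transcript length behind its TPM. Neighbours in that order often changed places between lines: Dmkn was above Sprr1a in 3 of 7 lines, Sprr1a above Krtdap in 5, Sprr1b above Sprr2h in 4, Ivl above Sprr2a2 in 2, Sprr2a2 above Krt10 in 4 and Lor above Krt1 in 5. Krtdap was above Sprr1b, Sprr2h above Ivl and Krt10 above Lor in 6 of the 7. The span of a gene between its highest and lowest knockout line was 103-fold for Lor, 61.5-fold for Sprr2a2, 39.5-fold for Krt1 and 17.4-fold for Sprr2h. It was 12.1-fold for Ivl, 12.0-fold for Dmkn, 8.99-fold for Sprr1a, 8.86-fold for Krtdap, 6.31-fold for Sprr1b and 2.0-fold for Krt10.

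Knockout replicate 7 was the highest knockout line for 9 of the 10 members, Krt10 being the exception. It exceeded the next knockout line 2.88-fold for Sprr2a2, 2.47-fold for Krt1, 2.41-fold for Lor and 2.06-fold for Dmkn in TPM, but 1.23-fold for Sprr1a, 1.13-fold for Sprr1b and 1.06-fold for Ivl. All 10 members reached 1 TPM in knockout replicate 7. In the other knockout lines 6 to 9 members did so, and in WT lines 1 or 2. The summed TPM of the members was 53.3 to 406 in knockout lines and 2.59 to 16.0 in WT lines. Knockout replicate 2 was second highest for Sprr1a, Sprr1b and Ivl and yet was the lowest knockout line for Sprr2a2, Lor and Krt1.

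How far these late transcripts stood below the basal keratins can be read in TPM. Krt14, the type I keratin of the basal layer, had 357, 2131 and 8728 TPM (lowest, median, highest) in knockout lines and 60.8, 122 and 288 TPM in WT lines. Relative to the Krt14 level of the same line, the median Dmkn level was 2.49% in knockout lines and 0.085% in WT lines. That of Sprr1a was 2.04% in knockout lines and 0.207% in WT lines. The groups overlapped for this Sprr1a share, at 0.599% to 4.96% in knockout lines and 0.118% to 20.2% in WT lines. WT replicate 3 had the highest share of all lines. For Ivl the median was 0.151% in knockout lines and 0.178% in WT lines, and for Krt1 it was 0.027% in knockout lines and 0.018% in WT lines. Lor was at 0.029% of Krt14 in knockout lines and 0.631% in WT lines, and Krt10 at 0.092% in knockout lines and 1.62% in WT lines, both in medians of TPM ratios. In the highest knockout line for Krt1, replicate 7, its 1.58 TPM stood beside 3607 TPM of Krt14. In these bulk samples, fewer cells making a transcript and less of it per cell cannot be told apart.

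**Figure D3:**
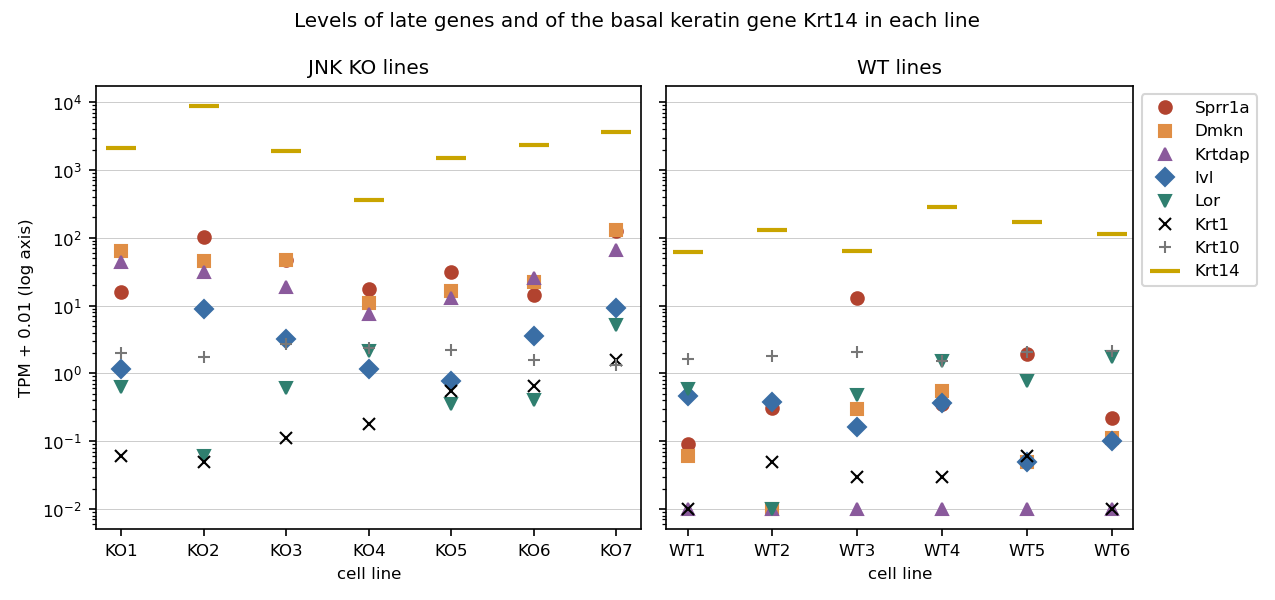
TPM of 7 members and of Krt14 in each line on a log axis (0.01 added so that zeros can be drawn), knockout lines in the left panel and WT lines in the right panel, 1 point per gene and line. Krt14 (bars) is the highest of these genes in every line, at 357 to 8728 TPM in knockout lines and 60.8 to 288 TPM in WT lines, while Krt1 stays between 0.04 and 1.58 TPM in knockout lines and at most 0.05 TPM in WT lines.

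The rest of the late epidermal program was examined in 5 lists of genes outside the members, which were also chosen with earlier results known. Of their 122 genes measured, 72 were tested, and 19 of these were higher in knockout lines, 1 was lower and 52 did not pass, beside 4.33% and 4.17% of all genes. The median log2 fold change of the 72 was 1.37, beside 0.01 over all genes tested. In 12 of the 72, every knockout line was above every WT line, beside 2.08% of all genes. Of the 122, 26 had reads in knockout lines and in no WT line, of which 24 had too few for a test and 2, Cnfn and Dsg1b, are among the 19 higher. No such share was counted over all genes, and totals were as low as 2 reads for Lce6a and Acer1, so nothing is read from the 26. There were 0 genes with reads in WT lines only, and 4 had none in any line. The 19 calls became 12 without knockout replicate 1 and 11 without knockout replicate 7.

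Most envelope precursors outside the members had too few reads for a test. Of 47 measured, 23 had reads in knockout lines and in no WT line, a count again without its share over all genes. The 11 tested held 3 higher, 0 lower and 8 not called, with a median log2 fold change of 1.37. Cnfn, cornifelin, had 0.779 to 14.1 CPM in knockout lines and 0 reads in WT lines, at least 373-fold higher against 3 reads over the WT group (adjusted p = 0.0046). Knockout replicate 7 held 635 of its 1242 reads, and without that line the bound was 216-fold. Cstb, the protease inhibitor cystatin B, averaged 193 ± 43.3 CPM in knockout lines and 119 ± 20.6 CPM in WT lines (log2 fold change 0.70, SE 0.17, adjusted p = 0.024), but its call was lost on either log2 TPM scale and without knockout replicates 2 and 7. Tchh, trichohyalin, was also called, with a log2 fold change of 2.24 (adjusted p = 0.043).

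The 2 plakin scaffolds of the envelope gave log2 fold changes near 0, with 0.01 (SE 0.45) for Evpl and 0.15 (SE 0.39) for Ppl. The late cornified envelope genes, whose proteins enter the envelope last, were summed by family. The 14 Lce1 genes had 277 reads in knockout lines and 2140 in WT lines. The 6 Lce3 genes had 501 reads in knockout lines and 63 in WT lines. Few genes carried the WT sums, which therefore do not describe whole families. Lce1g had 137 reads in knockout lines and 1730 in WT lines, and Lce1h had 14 and 372. Lce3c held 60 of the 63 WT reads of Lce3 and had 167 in knockout lines. Without knockout replicate 7 the knockout totals were 148 reads for Lce1 and 184 for Lce3, and without WT replicate 4 the WT totals were 1145 reads for Lce1 and 29 for Lce3. Lce1g, picked out after its values were seen, had 0.20 to 2.63 TPM in knockout lines and 31.8, 42.8 and 24.4 TPM in WT replicates 1, 4 and 6, with at most 0.84 TPM in the other WT lines. The difference did not pass (log2 fold change −3.78, SE 1.24, adjusted p = 0.074).

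The other late precursors of the filaggrin type were at or near 0 in most lines. Flg2 had 0 reads in every line, and Hrnr, hornerin, had 21 reads in knockout lines, 17 of them in replicate 7, and 0 in WT lines. Rptn, repetin, had 1493 reads in knockout lines, 1306 of them in replicate 7, and 0 in WT lines, and it reached 11.1 TPM in that line and at most 0.55 TPM in the other knockout lines. Krt2, a keratin of the uppermost spinous and granular layers, had 0 reads in every line. Filaggrin itself, Flg, was not analysed here.

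None of the crosslinking enzymes was called and some of the lipid genes were, but the threshold divides near values. By edgeR's test, Tgm1 missed it narrowly, while the lipid genes Cyp4f39 and Pnpla1 passed at adjusted p of 0.044 and 0.047. The 2 kinds of gene are therefore not told apart by these calls. Tgm1, the main transglutaminase of the envelope, had 1.26, 19.3 and 91.2 CPM (lowest, median, highest) in knockout lines and 0.779, 2.83 and 7.63 CPM in WT lines, with overlapping groups (log2 fold change 2.83, SE 0.83, adjusted p = 0.0503). For Tgm3 the difference was 0.66 on the log2 scale (SE 0.77, adjusted p = 0.62), and for Tgm5 it was 1.37 (SE 0.99, adjusted p = 0.40). In all, 4 of 17 tested genes of this list were higher, 0 lower and 13 not called, with a median log2 fold change of 1.19.

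Elovl4, which elongates the very long fatty acids of barrier ceramides, averaged 30.5 ± 30.5 CPM in knockout lines and 0.233 ± 0.241 CPM in WT lines (log2 fold change 7.02, SE 1.06, adjusted p = 0.0029). Without WT replicate 1 its log2 fold change was 7.66, and its call was lost with limma-voom. Abca12, the transporter that loads lipids into lamellar granules, rose by 4.71 on the log2 scale (SE 1.02, adjusted p = 0.015). The other 2 called, both in acylceramide synthesis, were Cyp4f39 (log2 fold change 2.76, adjusted p = 0.044) and Pnpla1 (3.30, adjusted p = 0.047). The Pnpla1 value was 2.65 without knockout replicate 7, which ended the call, and 4.18 without WT replicate 2.

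Of 14 tested genes of desquamation and filaggrin processing, 3 were higher, 0 lower and 11 not called, with a median log2 fold change of 1.94. Spink5, the inhibitor that restrains kallikreins in the epidermis, averaged 20.3 ± 25.9 CPM in knockout lines and 0.510 ± 0.427 CPM in WT lines (log2 fold change 5.32, SE 0.87, adjusted p = 0.0045). Without knockout replicate 7 its log2 fold change was 4.43. Padi3, which deiminates filaggrin and trichohyalin, had 3.02 to 68.6 CPM in knockout lines and 0.081 to 1.49 CPM in WT lines (log2 fold change 4.84, SE 0.94, adjusted p = 0.0099). It was 4.20 on the log2 scale without knockout replicate 2, and its call was lost with limma-voom. Asprv1, a filaggrin-processing protease, was called at 2.96 (adjusted p = 0.041). Its value was 2.22 without knockout replicate 7, which ended the call, and 3.99 without WT replicate 5. The kallikreins Klk7 and Klk14, proteases of shedding, did not pass, with log2 fold changes of 2.00 (SE 1.38) and 4.34 (SE 1.49, adjusted p = 0.085).

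Spinous layer genes gave the highest count of the 5 lists, with 7 of 12 tested higher, 0 lower, 5 not called and a median log2 fold change of 2.80. Sbsn, suprabasin, whose gene is in the same cluster as Dmkn and Krtdap, averaged 34.3 ± 22.1 CPM in knockout lines and 1.73 ± 1.05 CPM in WT lines (log2 fold change 4.30, SE 0.56, adjusted p = 0.0014). Ly6d, a surface protein of stratified epithelia, rose by 6.83 on the log2 scale (SE 0.95, adjusted p = 0.0021), and by 6.02 without knockout replicate 7. Lgals7, galectin-7 of stratified epithelia, averaged 58.2 ± 75.5 CPM in knockout lines and 0.658 ± 0.752 CPM in WT lines (log2 fold change 6.47, SE 1.06, adjusted p = 0.0045). Leaving out knockout replicate 2 gave 5.54. Calml3, a calmodulin-like protein of differentiating keratinocytes, rose by 6.25 (SE 1.21, adjusted p = 0.0098), and by 5.64 without knockout replicate 2.

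The other 3 spinous genes called were adhesion or surface genes. Dsg1b, a desmosomal cadherin, had reads in knockout lines only and was at least 200-fold higher against 3 reads over the WT group (adjusted p = 0.010), or 130-fold without knockout replicate 7. Perp, a desmosomal membrane protein, rose by 1.36 (SE 0.28, adjusted p = 0.013), and Ly6g6c, a Ly6-family surface protein, by 3.76 (SE 1.02, adjusted p = 0.038).

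Of 18 tested transcription factors of late differentiation, 2 were higher, 1 lower and 15 not called, with a median log2 fold change of 1.34. Grhl3, which drives barrier genes, averaged 17.6 ± 12.0 CPM in knockout lines and 2.18 ± 1.20 CPM in WT lines (log2 fold change 3.02, SE 0.51, adjusted p = 0.0052). Cebpa, a factor of the suprabasal layers, was called at 2.69 (adjusted p = 0.038). Rora, a nuclear receptor, averaged 5.03 ± 2.30 CPM in knockout lines and 21.8 ± 19.0 CPM in WT lines (log2 fold change −2.11, SE 0.51, adjusted p = 0.024). Without WT replicate 3 it was −1.54 with an adjusted p of 0.053, and the call was also lost without knockout replicate 1. Klf4, which is needed for the skin barrier, differed by 1.29 on the log2 scale (SE 0.58, adjusted p = 0.18), Zfp750 by 1.08 (SE 0.40, adjusted p = 0.10) and Ovol1 by 1.18 (SE 0.54, adjusted p = 0.18), none of which passed. When 1 of the 13 lines was dropped at a time, 5 of the genes named in these 5 lists kept their call in few of the fits: Tchh in 3, Cyp4f39 in 2 and Pnpla1, Asprv1 and Cebpa in 4 each. Abca12 passed the filter on low counts in only 7 of the 13 fits and was called in each of those.

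Basal and activated keratinocyte genes were also higher in the knockout lines, with 7 of 8 higher, 0 lower and a median log2 fold change of 5.45. Krt6a, a keratin of activated and wounded epidermis, had 60.0 to 2019 CPM in knockout lines and 0 to 0.140 CPM in WT lines (log2 fold change 13.34, SE 1.21, adjusted p = 0.00016; 12.76 without knockout replicate 2). Krt5 had 84.2 to 12403 CPM in knockout lines and 0.108 to 1.01 CPM in WT lines (log2 fold change 12.11, SE 1.65, adjusted p = 0.0020). Leaving out knockout replicate 2 gave 10.58. Krt14 rose by 4.65 (SE 0.68, adjusted p = 0.0026) and Trp63, the master factor of stratified epithelia, by 4.55 (SE 0.90, adjusted p = 0.011). Krt6b, whose reads are hard to separate from those of Krt6a, was called at 11.11 (adjusted p = 0.0014). It gave 13.09 without WT replicate 2, which held 6 of its 7 WT reads, and 10.51 without knockout replicate 2. The calls of Krt5 and Krt6b were lost with limma-voom. Krt5 and the members did not keep 1 order over the lines: knockout replicate 2 had 9482 TPM of Krt5 and knockout replicate 7 had 365 TPM.

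**Figure D4:**
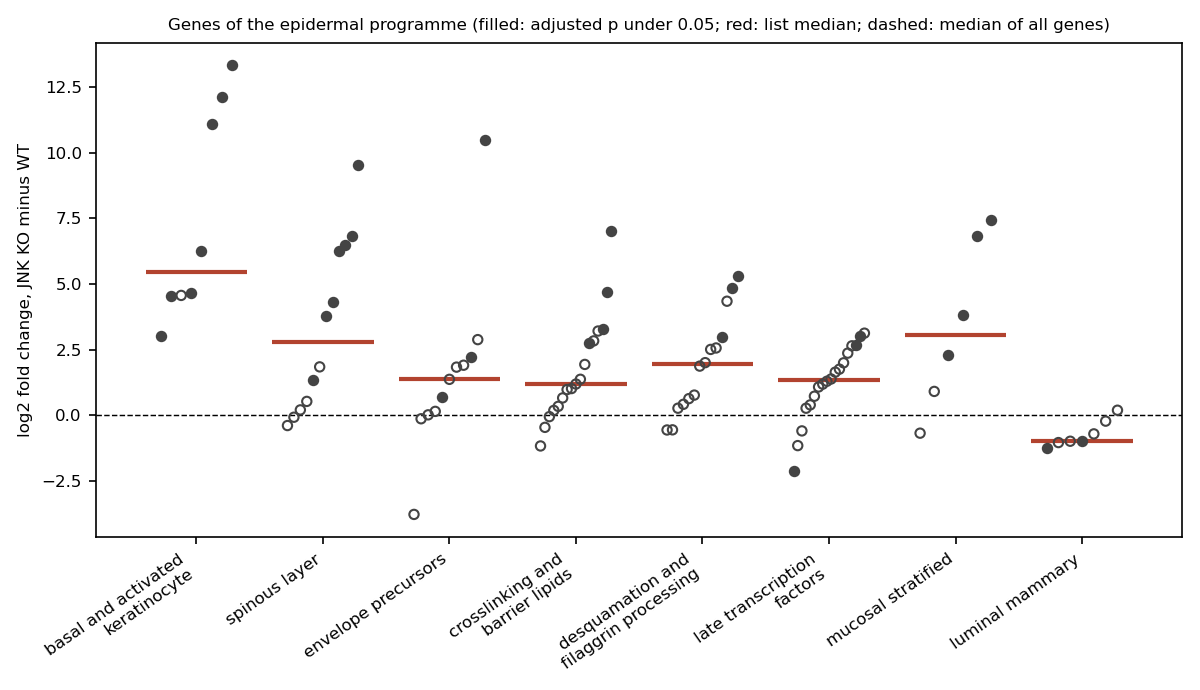
Log2 fold change (knockout minus WT) of each tested gene outside the members in 8 lists, 1 column per list, filled where edgeR's adjusted p was under 0.05, with a red bar at the list median and a dashed line at the median of all genes. The medians of the 5 late epidermal lists lie between 1.19 and 2.80, that of the basal and activated list at 5.45, that of the mucosal list at 3.07 and that of the luminal list at −0.97.

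**Figure D5:**
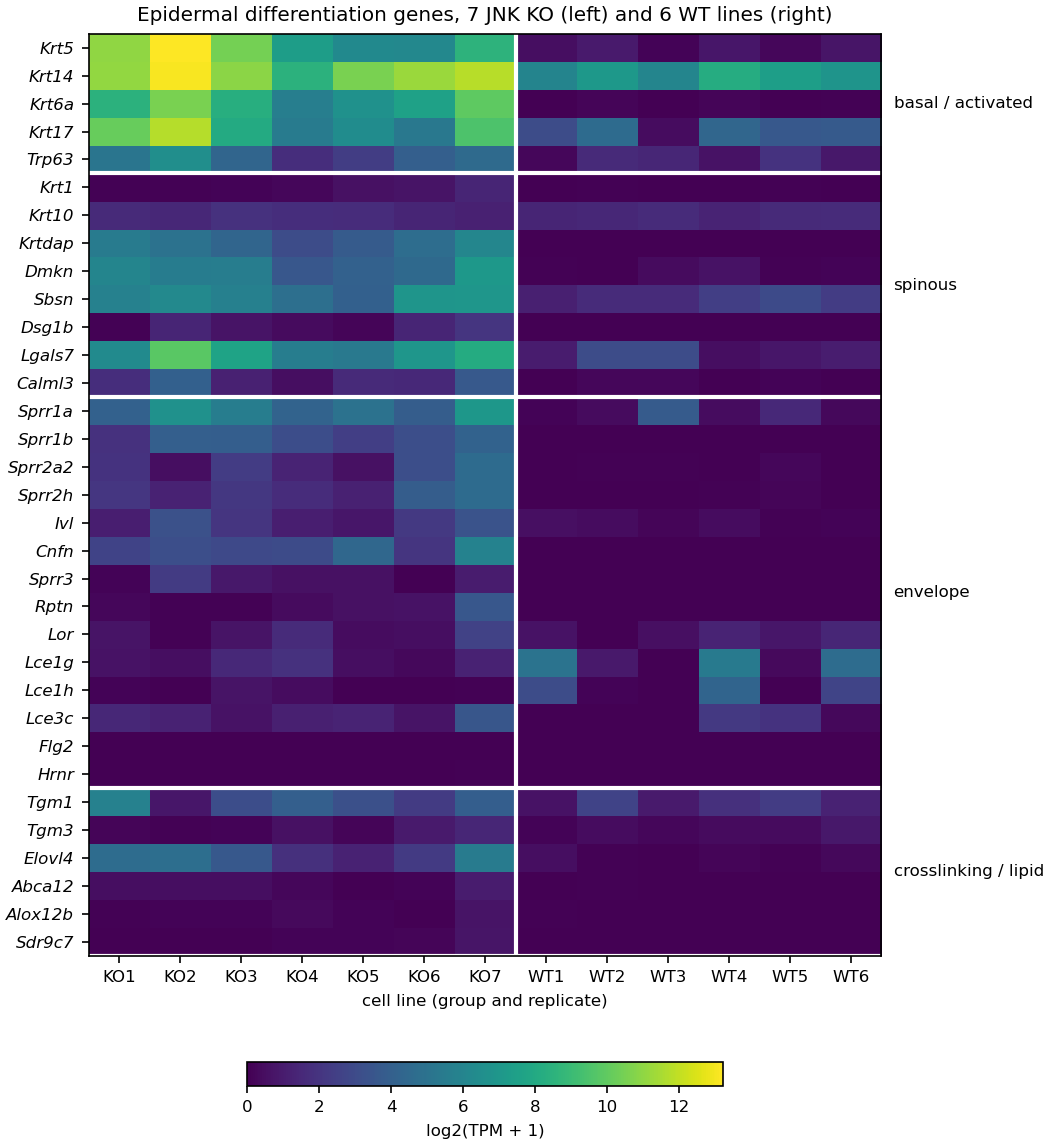
Log2(TPM + 1) of basal, spinous, envelope and crosslinking or lipid genes in each line, knockout lines left of the white line and WT lines right of it, with genes chosen after their values were seen. Basal keratins reach the highest levels in knockout lines (Krt5 up to 9482 TPM), Sprr1a, Dmkn and Krtdap are intermediate, and Krt1, Lor, Flg2 and Hrnr are at or near the bottom of the scale in most lines.

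Markers of other cell types that a tumour culture or skin tissue could hold were read beside these results. Luminal epithelial genes moved the opposite way in part, with 2 of 7 tested lower and 0 higher: Krt18 fell by 1.26 on the log2 scale (SE 0.18, adjusted p = 0.0026) and Krt8 by 0.97 (SE 0.28, adjusted p = 0.047). The Krt8 call was kept in 3 of the 13 fits that dropped 1 line, and was lost with no filter on low counts and with WT replicates 4 and 5 summed. Of 6 fibroblast genes, 5 were tested and 2 were lower, 0 higher, with a summed level of 0.73 to 15.0 TPM in knockout lines and 4.23 to 140 TPM in WT lines. Those were Col1a1 at −4.40 (adjusted p = 0.023) and Col1a2 at −6.72 (adjusted p = 0.013), and without WT replicate 3 they were −1.91, with the call lost at an adjusted p of 0.053, and −3.80. Both calls were also lost with limma-voom.

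Markers of skin-resident types were mostly low, Cd68 being the most abundant of the leukocyte genes. Of 5 melanocyte genes 1 was tested and 0 called, with a summed level of 0.54 to 1.67 TPM in knockout lines and 0.35 to 5.21 TPM in WT lines, and Tyr had 0 reads in every line. The tested gene, Pmel, had a log2 fold change of −0.06. Of 6 leukocyte and Langerhans cell genes measured 2 were tested and 0 called, with 3.57 to 18.5 TPM in knockout lines and 3.68 to 33.4 TPM in WT lines, and Cd207, a Langerhans cell marker, had 0 reads in every line. The 2 tested were Csf1r (log2 fold change −0.96) and Cd68 (−0.07), a macrophage lysosomal protein, which had 3.54 to 18.5 TPM in knockout lines and 3.44 to 33.4 TPM in WT lines. Endothelial genes, 4 measured and 0 tested, summed to 0.03 to 0.39 TPM in knockout lines and 0.03 to 0.11 TPM in WT lines. Of 16 hair follicle genes, 3 were tested and 1, the companion-layer keratin Krt75, was higher (log2 fold change 6.17 with SE 1.22, adjusted p = 0.010; 7.05 without WT replicate 2), with a list sum of 1.87 to 11.4 TPM in knockout lines and 1.90 to 17.9 TPM in WT lines. Krt75 passed the filter on low counts in only 7 of the 13 fits that dropped 1 line, and was called in each of those. The part of these cell types in the members' values was not tested.

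Of the members, 6 share a stretch of chromosome 3. From Lor at chr3:92080271-92083142 through Sprr2a2, Sprr2h, Sprr1b and Sprr1a to Ivl at chr3:92570899-92573790 it spans 493.52 kb of the epidermal differentiation complex, with coordinates from RefSeq on GRCm38. Of 25 genes annotated there, 18 were measured and 12 of these are not members. None of the 12 had enough reads for a test, but 11 had reads in knockout lines and in no WT line, and 0 had reads in WT lines only. The share of such genes over all genes was not counted, so nothing is read from the 11. Of these, 8 are Sprr2 genes, for which the sharing of reads with the members is uncertain. Lelp1 had 4 reads and Sprr2j-ps 19. The totals in knockout lines were 175 reads for Sprr2d, 156 for Sprr3, 98 for Sprr2g, 94 for Sprr2f, 80 for Sprr2e and 57 for Prr9, and Sprr4 had 0 in every line. Lor was the member there whose groups overlapped. Dmkn (chr7:30763756-30781066) and Krtdap (chr7:30787905-30791089) are neighbours on chromosome 7, and Krt1 (chr15:101845426-101850786) and Krt10 (chr11:99385254-99397449) lie in the separate keratin clusters.

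Among the members, the shape across the 13 lines was compared by the root mean square difference between the standardized log2 CPM of a gene and the mean of the 9 members that passed the filter. Dmkn (0.269), Sprr1b (0.282) and Krtdap (0.290) were nearest to that mean, then Sprr2h (0.342), Sprr2a2 (0.385), Sprr1a (0.415) and Ivl (0.508), while Krt10 (0.979) and Lor (1.03) stood apart. Outside the members and lists, the 5 nearest of 10215 genes were Lars2 (0.320), Limk2 (0.343), Ppp3ca (0.364), Wdr61 (0.376) and Pitx1 (0.377), beside a median of 1.24 over those genes. Lars2, a mitochondrial leucyl-tRNA synthetase, had 73.1 ± 7.44 CPM in knockout lines and 47.2 ± 4.10 CPM in WT lines. Limk2, a kinase of the actin regulator cofilin, had 204 ± 64.4 CPM in knockout lines and 47.1 ± 5.64 CPM in WT lines. Pitx1, a homeobox factor, had 135 ± 120 CPM in knockout lines and 0.088 ± 0.216 CPM in WT lines. Since the members were chosen for separating the 2 groups, a gene that separates them lies near by this measure.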

How the data were processed

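RNA of 13 lines was measured by paired-end sequencing. The authors deposited expected counts per gene and TPM (transcripts scaled for length to a common sum), made with RSEM after cutadapt trimming against mm10, also named GRCm38, per the submitters' processing notes. No source used here gives the aligner, annotation, strand setting or versions of those tools, so antisense reads were not separated, and RSEM's sharing of reads leaves near-identical genes such as the Sprr2 family uncertain. Expected counts were rounded, filtered with filterByExpr, scaled by TMM and compared with edgeR 4.0.16 (R 4.3.3) by its quasi-likelihood test with genotype as the only term and Benjamini-Hochberg adjustment over the 13058 genes that passed (threshold 0.05). Each SE is approximate, the absolute log2 fold change over the root of F. Alternatives used limma 3.58.1 and DESeq2 1.42.0, other filters and scales, and each line left out. The code was tested on simulated data.

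The members and gene lists were chosen with earlier results of these data known. Named genes are all members, up to 4 called genes per list, by lowest adjusted p (or the 2 of smallest p where none was called), and the 5 nearest in shape. Other genes named were picked after their values were seen. Promoter windows were read from RefSeq (GRCm38.p6).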

Additional observations from a re-analysis of the deposited data

Results flagged for a closer look

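A line was set apart by Dixon's criterion, where its gap to the nearest line of its group was large for that group's range. This happened in 23 of 96 groups looked at, 8 of them through knockout replicate 7 and 4 through knockout replicate 2. Chance meets the criterion in about 1 in 20 groups only where values are normally distributed and groups are independent. The values here were TPM or CPM without a log, and every line set apart was the highest of its group. Genes that vary together also share their high lines. The 23 is therefore not compared with that rate, and the flags only describe these lines.

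Among the members, knockout replicate 7 had 23.4 TPM of Sprr2a2 (next highest knockout line 8.10), 5.15 TPM of Lor (next 2.14) and 1.58 TPM of Krt1 (next 0.64). WT replicate 3 had 12.9 TPM of Sprr1a (next highest WT line 1.92), and WT replicate 5 had 0.17 TPM of Sprr2a2 (next 0.06).

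Outside the members, knockout replicate 7 was also far above the other knockout lines for Tchh (11.7 CPM), Abca12 (5.55 CPM), Spink5 (76.5 CPM), Asprv1 (33.5 CPM) and Ly6d (208 CPM). Knockout replicate 2 stood above the rest for Krt5 (12403 CPM), Krt14 (8337 CPM), Ecm1 (2478 CPM) and Lgals7 (224 CPM). In the WT group, replicate 2 was the high line for Tchh (3.16 CPM), Csf1r (6.32 CPM), Pnpla1 (0.819 CPM) and Krt6b (0.140 CPM), and replicate 3 for Col1a1 (184 CPM) and Col1a2 (160 CPM). WT replicate 5 was the high line for Asprv1 (4.44 CPM) and Scel (1.57 CPM), and WT replicate 4 for Pitx1 (0.528 CPM).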

How the results depend on the processing

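Calls over all genes moved with the tool and the scale, and the cause was not tested. Against 566 higher and 545 lower, DESeq2 gave 1130 and 977, limma on log2(TPM + 1) gave 286 and 998, and limma on log2(TPM + 0.1) gave 322 and 981, where the median of all genes shifted to −0.19 and −0.23. With 1 line left out in turn, 324 to 649 were higher and 316 to 592 lower. Late epidermal genes outside the members gave 19 higher and 1 lower, against 29 higher with no filter and 11 to 24 higher and 0 to 2 lower with 1 line left out. The lower count was 0 with limma-voom and 2 with DESeq2 and on either TPM scale. The median log2 fold change of the members, 5.78, was 2.80 on log2(TPM + 1) and 4.77 on log2(TPM + 0.1), whose added constant shrinks low values. Both of these medians mix scales, because Krt1 entered them at its edgeR value without a filter. With 1 line left out the median was 5.003 to 6.84. Leaving out knockout replicates 2 and 7 together, chosen after seeing the data, gave 306 higher and 338 lower over all genes and 11 higher and 2 lower late genes. Leaving out knockout replicate 2 and WT replicate 3, also chosen then, gave 2 lower late genes and a member median of 6.81. The calls of Abca12 and Krt75 were lost on log2(TPM + 1), and that of Rora with limma-voom. Direction held for 9 members under all 23 alternatives. Where a filter left out a member, its value came from edgeR without that filter on the same lines. Krt1 was therefore never fitted by DESeq2, limma-voom or limma on TPM. Lor turned to −0.13 without knockout replicate 7, and ran from there to 1.20 with 1 line left out. Markers that were not called also turned with 1 line left out. Csf1r, at −0.96 with all lines, ran between −1.30 and 0.74, and it turned only without WT replicate 2. Cd68 and Pmel, both near 0 with all lines, ran between −0.27 and 0.32 and between −0.21 and 0.10. Cd68 was 0.032 with limma-voom, 0.11 with WT replicates 4 and 5 summed and 0.024 without knockout replicates 2 and 7, and Pmel was 0.047 without knockout replicate 2 and WT replicate 3. No paired analysis was possible because the replicate numbers follow accession order and pair no lines. Genes with a few reads per line, Krt1 among them, have values limited by counting.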

Other observations

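Genes of mucosal stratified epithelia, such as esophagus and oral lining, were also read, with 4 of 6 tested higher in knockout lines and 0 lower, and a median log2 fold change of 3.07, beside 0.01 over all genes. Krt4, the type II keratin of mucosal suprabasal layers, averaged 17.1 ± 16.6 CPM in knockout lines and 0.145 ± 0.113 CPM in WT lines (log2 fold change 6.85, SE 1.19, adjusted p = 0.0064 by edgeR's quasi-likelihood test), but its call was lost with limma-voom. Tmprss11d, an airway and mucosal serine protease, had 0.216 to 13.5 CPM in knockout lines and at most 0.047 CPM in any WT line, and rose by 7.44 (SE 1.12, adjusted p = 0.0030). It passed the filter on low counts in only 7 of the 13 fits that dropped 1 line, and was called in each of those. Ecm1, which is also made in epidermis, rose by 2.30 (SE 0.44, adjusted p = 0.0096). Scel, sciellin, an envelope-associated protein of stratified epithelia, rose by 3.83 (SE 0.92, adjusted p = 0.023), and by 5.35 without WT replicate 5, but its call was lost with knockout replicate 2 and either WT replicate 3 or knockout replicate 7 left out.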
